A study of Mus musculus with 13 samples.

Results

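The histone cluster genes were taken as every listed symbol that starts with Hist1h, Hist2h, Hist3h or Hist4h and that had 20 or more UMIs (unique molecular identifiers, each a captured mRNA molecule) summed over all libraries. The rule gave 65 genes of 69 symbols with these prefixes, out of 27998 genes listed, and was set on the total count alone. The least counted member, Hist1h1t, had 29 UMIs, and the symbols left out were Hist1h2bq with 6 UMIs, Hist1h4m with 4, Hist1h2br with 3 and Hist1h2ba with 2. Types were read from the symbols, so the pseudogene Hist1h2al counts under H2A and a non-coding Hist2h2bb identifier under H2B. Of the 65, 6 belong to linker histone H1, 19 to H2A, 16 to H2B, 12 to H3 and 12 to H4. In the mm10 annotation 51 lie on chromosome 13, where all but the pseudogene Hist1h2al belong to the large cluster, 11 on chromosome 3, 2 on chromosome 11 and 1 on chromosome 6.

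The samples were single-cell suspensions of C57BL/6 mouse back skin profiled on the 10x Chromium, which reads the 3′ end of poly(A)-primed cDNA. They came from wild-type mice (WT) and from mice without Grhl3 (KO, Grhl3-/-), a transcription factor gene of epidermal differentiation, at E14.5, E16.5 and birth (P0). For the P0 group the paper's methods also name a late embryonic day. Each of the 6 age and genotype groups held 2 libraries, littermates of 1 male and 1 female per genotype, and a further P0 WT library was made with the earlier Chromium v1 kit. E14.5 and E16.5 libraries hold all cells of the skin, while P0 libraries hold the epidermis, peeled off after overnight dispase. The KO lacks Grhl3 in the whole animal, and all KO embryos had spina bifida, with skin taken anterior to the defect.

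Histones package DNA into nucleosomes, with H2A, H2B, H3 and H4 forming the core particle and H1 binding the linker DNA between particles. Most genes of these clusters are transcribed while DNA is being copied. Their mRNAs usually end in a short conserved stem-loop, bound by Slbp, instead of a poly(A) tail, and are broken down when DNA synthesis stops. Libraries primed from poly(A) capture molecules that carry a tail or an internal run of A, and the 3′ end of each member was therefore read from the annotated transcripts.

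Across the 13 libraries 86507 cells passed the filters, between 5058 and 9157 per library, from 49245953 to 107038146 UMIs per library. No pair of libraries shared more than 1.76% of its cell barcodes. Cells were grouped into 113 clusters without using the histone genes. Clusters of basal, differentiated, hair follicle and sebaceous keratinocyte markers were joined as keratinocyte-like cells, 352 to 7387 per library, and a fibroblast-like class from the E14.5 and E16.5 dermis served as a separate dividing population. In addition, 14 clusters with 8.66% of the cells were left without a name. In keratinocyte-like cells Grhl3 stood at 47.2 and 60.02 CPM (UMIs scaled to the total UMIs of the same cells) in the E14.5 WT libraries against 36.5 and 35.6 in KO, at 16.504 and 18.5 against 10.2 and 6.38 at E16.5, and at 7.95 and 9.73 against 2.76 and 3.27 at P0. It was lower in KO at E16.5 (log2 fold change -1.15 ± 0.22 SE, edgeR adjusted p = 0.0221) and at P0 (-1.47 ± 0.18, adjusted p = 0.000121), and at E14.5 the difference missed the threshold (-0.59 ± 0.18, adjusted p = 0.232). A 3′ count can include reads of a transcript that keeps its 3′ end, so these values do not measure the deletion itself.

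A stem-loop match in any protein-coding transcript was found in 68 of 21901 protein-coding genes (0.310%), and 45 of the 68 were members. Of the 65 members, 44 had the stem-loop in the longest annotated transcript. In 23 of these members the transcript ran 100 or more bases past the stem-loop, and 12 of the 23 carried AATAAA or ATTAAA, the letters of a poly(A) signal, in the last 50 bases. The other 21 ended near the stem-loop, 1 of them with such letters. Another 3 members, Hist1h2bc, Hist2h2be and Hist1h2bp, had a long 3′ UTR without a stem-loop, and 16 had no stem-loop and a short 3′ UTR or none, the annotation then stopping at or close to the coding sequence. The remaining 2 were Hist1h2al, annotated as a processed pseudogene, and the second Hist2h2bb identifier, annotated as a non-coding RNA. The first kind took 52.3% of the 560565 member UMIs, the second 23.2%, the third 13.4% and the fourth 10.8%.

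The stem-loops of 5 of the most counted members show how close these ends are. Each line gives 14 bases before the stem-loop and then the stem-loop in capitals, 5′ to 3′, from the GENCODE M21 transcripts of mm10.
Hist1h2ap: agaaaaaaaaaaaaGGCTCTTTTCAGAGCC
Hist1h1c: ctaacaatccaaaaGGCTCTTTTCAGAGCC
Hist3h2ba: gcccccaacccaaaGGCTCTTTTCAGAGCC
Hist1h1e: cccaacaacccaaaGGCTCTTTTCAGAGCC
Hist1h4d: acccaaaaaccaaaGGCCCTTTTCAGGGCC
Hist1h2ap, an H2A gene, stops 3 bases after its stem-loop and holds an unbroken run of 12 A just before it. The others run on, Hist1h1c by 840 bases, Hist3h2ba by 169, Hist1h1e by 1153 and Hist1h4d by 770. The last 30 bases of the longer Hist1h1c and Hist3h2ba transcripts are shown next with the poly(A) signal letters in capitals.
Hist1h1c: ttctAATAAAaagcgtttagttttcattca
Hist3h2ba: attAATAAAtttggttcaattttggccaca

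These genes were not evenly counted. The 12 members with the most UMIs held 84.3% of the total, while the median member had 1379. In order they were the H2A gene Hist1h2ap with 86250, the H1 gene Hist1h1c with 75752, the H2B gene Hist1h2bc with 69542, the H2A gene Hist3h2a with 51114, its neighbour the H2B gene Hist3h2ba with 50221, the H1 genes Hist1h1e with 47260 and Hist1h1b with 36137, the H2A gene Hist1h2ae with 17260, the H4 gene Hist1h4i with 14105, the H1 gene Hist1h1d with 10435, the H4 gene Hist1h4d with 7622 and the H3 gene Hist1h3c with 6791. By type, H1 took 31.3% of member UMIs, H2A 32.9%, H2B 25.9%, H3 3.87% and H4 6.04%. Capture depends on a tail or an internal run of A, so the order is one of captured molecules and not of mRNA levels. Annotated genes also share sequence. Over the last 300 bases of the transcript, 42 members shared at least 1 window of 75 bases with another annotated gene and 27 shared 50% or more of their windows. For Hist1h2ap and the less counted Hist2h2aa1 100% of the windows were shared, among others with further H2A genes. For Hist1h1e 100% were shared too, with Gm11398 and the H2B gene Hist1h2be, whose annotated span overlaps that of Hist1h1e. The counts of these members may be split or dropped between the genes that share the sequence.

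Upstream of the genes, 57 members had a promoter in the RefSeq GRCm38.p6 table, covering 250 bases before to 50 bases after the start. Letters were searched on both strands. CCAAT was found in 86.0% of the member promoters and in 37.9% of all 27025 promoters, TATAAA in 57.9% against 14.2%, and ATTTGCAT, the octamer, in 21.1% against 1.75%. The octamer was in 7 of 17 H2A and 5 of 13 H2B promoters, which are often arranged as divergent pairs, and in none of the H1, H3 or H4 promoters. AAACACA, the H1 box, was in 5 of 6 H1 promoters against 7.14% of all promoters, and CCAAT was in every H1, H2A, H2B and H3 promoter but in 3 of 11 H4 promoters. None of these motifs contains another, and a match is a description of letters and not a binding site.

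To ask how the members follow the cell cycle, each cell was scored for G1, S and G2M from 43 S and 54 G2M genes, none of them a histone cluster gene, and UMIs were summed per library and phase. The keratinocyte-like sums took all narrower classes together, so the makeup by class was not held fixed between phases. Most tested members were higher in S than in G1, whereas a few that carry many of the UMIs were not. Hist1h2ap ranged from 1.66 to 23.3 CPM in G1 cells of the 12 Chromium v2 libraries with a median of 6.00, from 54.0 to 168 with a median of 91.1 in S cells, and from 89.1 to 210 with a median of 126 in G2M cells. The G1 and S ranges did not overlap, and the order G1, S, G2M held in all 12 libraries. This member had the largest difference between S and G1, a log2 fold change of 3.16 ± 0.15 (SE, edgeR quasi-likelihood test, adjusted p = 1.447e-16).

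**Figure D1:**
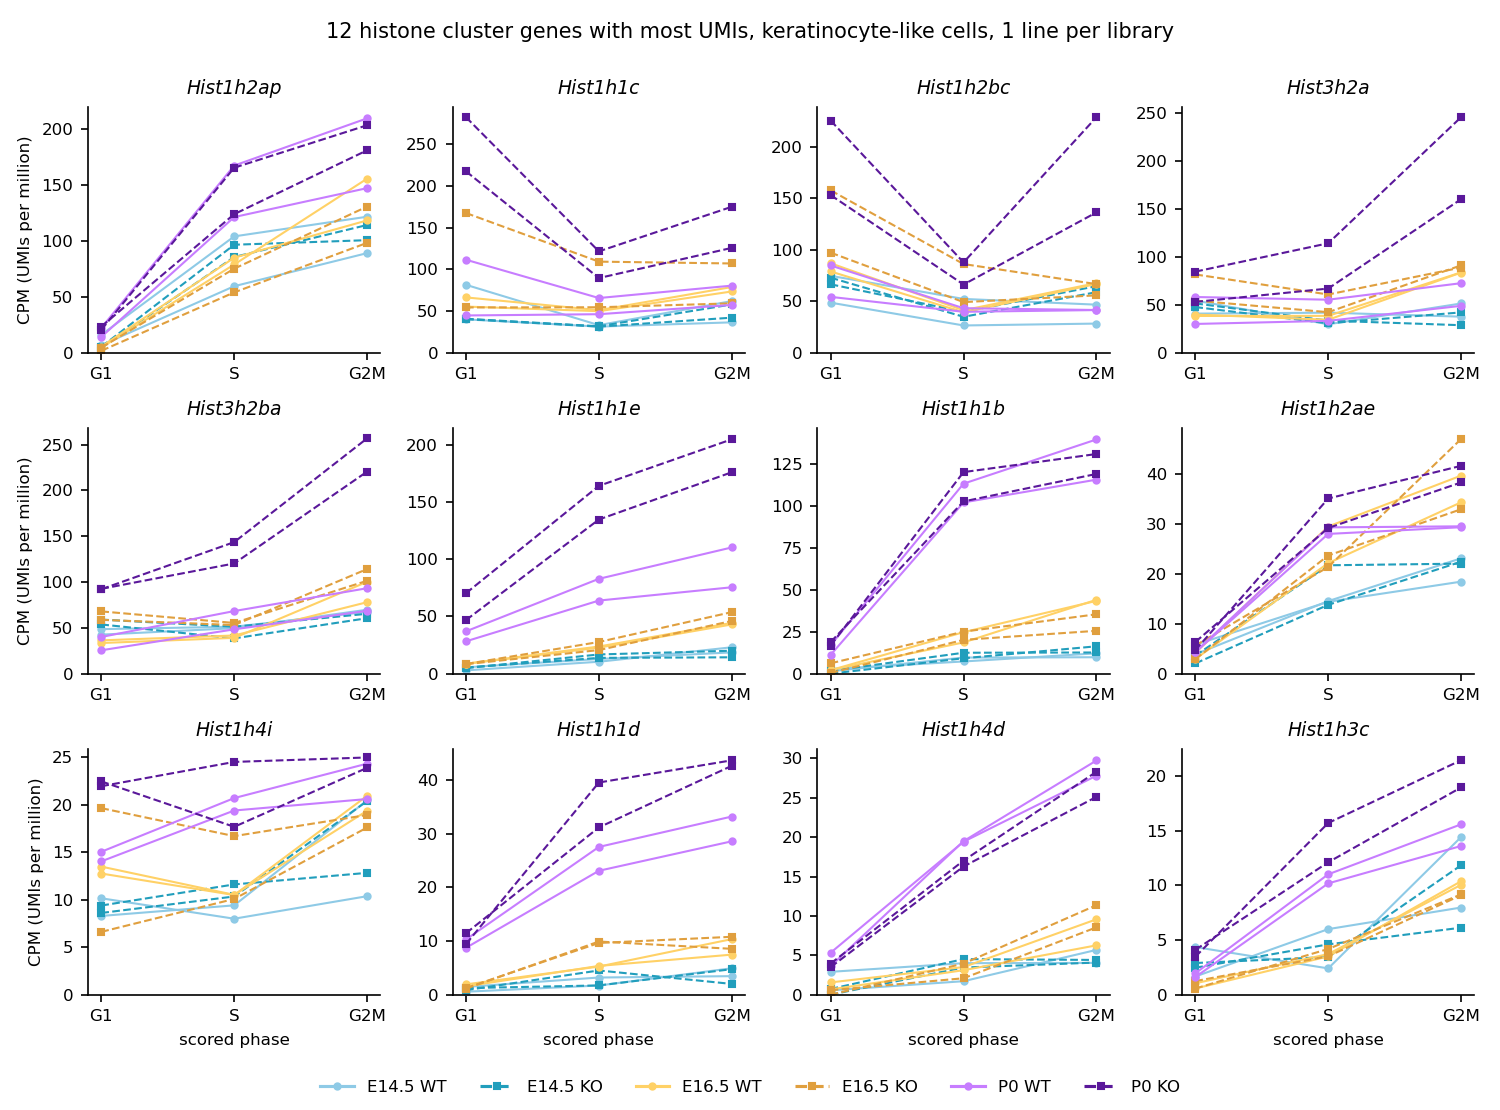
Level of the 12 members with the most UMIs (vertical axis, CPM of the summed UMIs) in keratinocyte-like cells scored as G1, S or G2M (horizontal axis), with 1 line for each of the 12 libraries, coloured by age and genotype (circles and solid lines WT, squares and broken lines KO). Hist1h2ap, Hist1h1e, Hist1h1b and Hist1h2ae climbed from G1 to G2M in every library, whereas Hist1h2bc was lower in S than in G1 in every library and Hist1h1c in 10 of 12.

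Of the 65 members, 47 had enough UMIs for the test. In S against G1, 41 of them were higher and 3 lower, against 29.3% of 12500 genes called higher and 29.9% called lower. The median log2 fold change was 1.67 over the tested members and -0.01 over all genes. After Hist1h2ap the largest differences were those of the H2A gene Hist1h2af (2.88 ± 0.21), the pseudogene Hist1h2al (2.78 ± 0.22), the H1 gene Hist1h1b (2.75 ± 0.14) and the H2B gene Hist1h2bk (2.63 ± 0.23). Low counts lie behind some of them: Hist1h2af was at 0 in G1 cells of 6 of the 12 libraries. Hist1h1b went from 0 to 18.8 CPM in G1 (median 2.46) to between 7.28 and 120 in S (median 22.5), and was higher in S in all 12 libraries.

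The core histones moved in the same direction by type. In H2A 11 of 12 tested members were higher in S, in H2B 11 of 13, in H3 7 of 8 and in H4 8 of 9, with median log2 fold changes of 2.50, 1.67, 1.44 and 1.25. Of the H1 genes 4 of 5 were higher, with a median of 1.58. The H2A gene Hist1h2ae was at 2.05 to 6.34 CPM in G1 and 13.8 to 35.1 in S, again without overlap. At the lower end of those that passed were Hist2h2be (0.48 ± 0.15, adjusted p = 0.00814) and Hist1h2be (0.72 ± 0.22, adjusted p = 0.00494), both H2B genes. Without the filter on low counts all 65 members could be fitted, and 51 were higher and 4 lower. The share of all genes called in that unfiltered fit is not given.

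The exceptions were few. Hist1h1c, which encodes a linker histone, was lower in S by a log2 fold change of -0.69 ± 0.11 (adjusted p = 2.023e-06), with a median of 60.7 CPM in G1 (range 39.9 to 282) and 50.3 in S (range 31.2 to 121). Its ranges overlapped and it was lower in S in 10 of the 12 libraries. Hist1h2bc, which has a long 3′ UTR and no stem-loop, was lower in S in all 12 libraries, with a median of 81.8 CPM in G1 and 42.2 in S (log2 fold change -1.04 ± 0.11, adjusted p = 5.285e-09). The third was the H3 gene Hist2h3c1 (-1.16 ± 0.29, adjusted p = 0.00116), with a median of 1.18 CPM in G1 and 0.614 in S. Hist3h2ba (0.16 ± 0.12), the H4 gene Hist1h4i (0.00 ± 0.11) and Hist3h2a (-0.25 ± 0.15) did not pass, so that neither Hist3 gene was called in S.

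In G2M 44 of the 47 tested members were higher than in G1 and 2 lower, against 26.3% of genes higher and 31.7% lower. The largest differences were Hist1h2ap at 3.63 ± 0.15, the H3 gene Hist1h3g at 3.30 ± 0.29, Hist1h2af at 3.29 ± 0.20, Hist1h1b at 3.15 ± 0.14 and Hist1h2bk at 3.11 ± 0.22. Those not called or lower in S took other values here. Hist3h2ba was higher by 0.89 ± 0.11, Hist3h2a by 0.53 ± 0.15 (in 8 of 12 libraries, and -0.34 within E14.5 alone) and Hist1h4i by 0.42 ± 0.10, while Hist1h1c (-0.27 ± 0.10, adjusted p = 0.0283) and Hist1h2bc (-0.55 ± 0.11) were lower than in G1. A higher level in G2M than in S was seen in all 12 libraries for 10 members and in 10 or more libraries for 20, among them Hist1h2ap, Hist1h1e, Hist1h1b and Hist1h2ae. The same count was not made over all genes, so these numbers have no background to be set against. The phase of between 6.07% and 9.55% of the cells per library lay close to a boundary of the scores, and a score built from mRNA cannot place a cell at a point of DNA synthesis.

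The 3′ end of the transcript and the phase difference varied together, given here as a description. All 17 tested members whose transcript ends near the stem-loop were higher in S, with log2 fold changes from 0.77 to 3.16 and a median of 1.81. All 9 tested members with no stem-loop and a short 3′ UTR were higher too, from 0.89 to 2.88 with a median of 2.51. Of the 17 that run past the stem-loop 12 were higher, 2 lower and 3 not called, from -1.16 to 2.50 with a median of 1.08. Of the 3 with a long 3′ UTR and no stem-loop, 2 were higher and Hist1h2bc was lower.

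The most counted members that were not higher in S, Hist1h1c, Hist1h2bc, Hist3h2a and Hist3h2ba, were added up apart from the rest after their values were seen. Together they made up a median of 78.4% of the member UMIs in G1 cells (range 46.7 to 87.3%) and 39.9% in S cells (range 19.8 to 55.3%). The other 61 members summed to a median of 67.6 CPM in G1, 246 in S and 417 in G2M. All 65 summed to a median of 310 CPM in G1, 416 in S and 733 in G2M. These sums pool narrower classes whose makeup may differ between phases, and its part was not tested. In basal keratinocyte-like cells alone the 65 had medians of 498 CPM in G1, 411 in S and 758.5 in G2M. The 4 genes had 354, 165 and 281 there, and the other 61 had 108, 226 and 424. In hair follicle-like cells (8 libraries) the 65 had 540, 720 and 1033. Differentiated keratinocyte-like cells had 266.5 in G1 (12 libraries) and 473 in S (9 libraries). Since the 4 genes were chosen for not being higher in S, the larger difference of the other 61 follows from that choice.

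Fibroblast-like cells of the 8 E14.5 and E16.5 libraries gave the same contrast in a separate population. Here 38 members were tested, and 30 were higher in S and 4 lower, against 26.3% of 12860 genes higher and 27.8% lower. Hist1h2ap lay between 3.50 and 8.97 CPM in G1 and between 79.3 and 188 in S, a log2 fold change of 4.47 ± 0.10 (adjusted p = 7.694e-21). Hist1h1b lay between 0.717 and 1.64 CPM in G1 and between 21.5 and 33.3 in S (4.46 ± 0.16). Neither pair of ranges overlapped. Next came Hist1h2al (3.68 ± 0.43), Hist1h2af (3.60 ± 0.44) and the H1 gene Hist1h1a (3.47 ± 0.25).

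The 4 members that were lower in S in fibroblast-like cells were Hist1h2bc, Hist3h2a, Hist3h2ba and Hist1h1c. Hist1h2bc had a median of 45.8 CPM in G1 and 9.23 in S, and its ranges, 26.6 to 69.4 and 5.89 to 11.7, did not overlap (log2 fold change -2.36 ± 0.14, adjusted p = 3.219e-13). Hist3h2a fell by 1.36 ± 0.10 and Hist3h2ba by 0.95 ± 0.14 on the log2 scale, each lower in S in all 8 libraries. Hist1h1c fell by 0.88 ± 0.12, also in all 8 libraries. In G2M cells Hist1h2bc was back at a median of 41.8 CPM, while Hist3h2a stayed lower than in G1 (-0.50 ± 0.08, adjusted p = 1.074e-05). Of the members called higher, Hist1h4h had the smallest change (0.56 ± 0.23, adjusted p = 0.0431). Whether the 2 cell kinds differ in these contrasts was not tested.

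**Figure D2:**
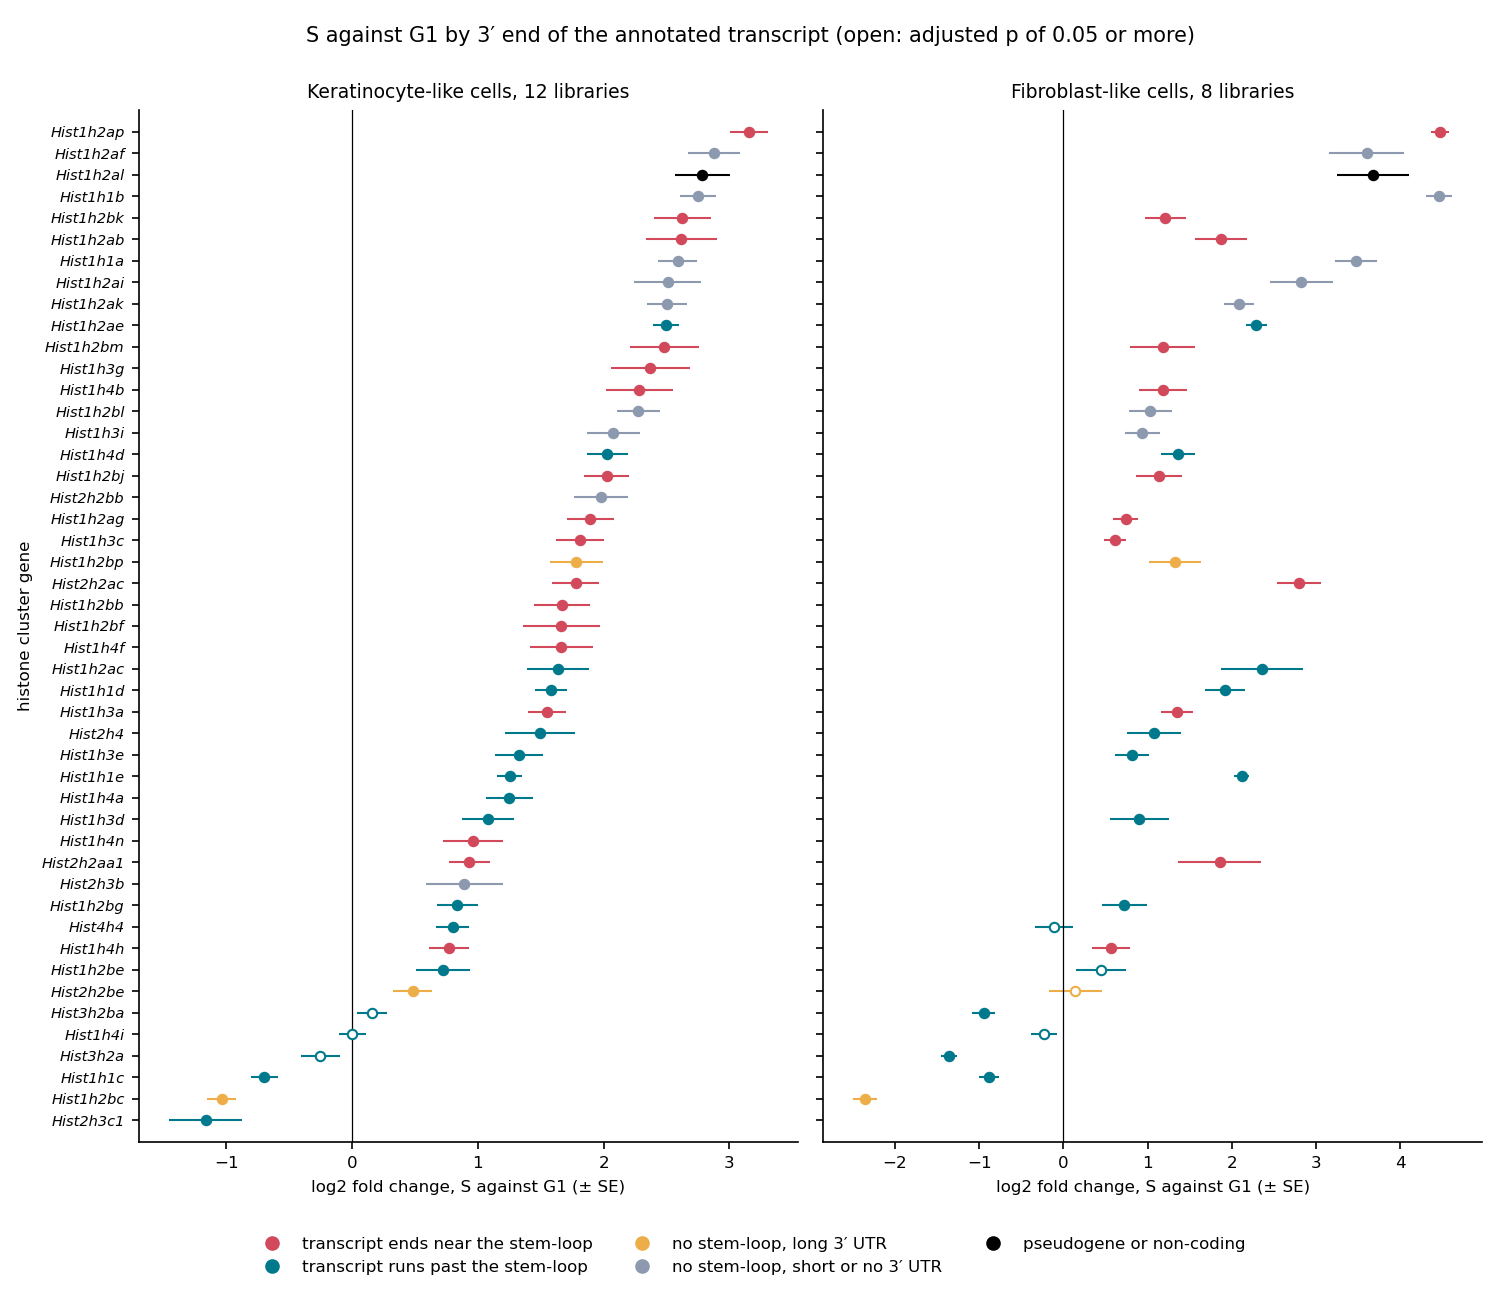
Log2 fold change of S against G1 with its SE (horizontal axis) for the 47 tested members (vertical axis, ordered by the value in keratinocyte-like cells), in keratinocyte-like cells of 12 libraries (left) and fibroblast-like cells of 8 libraries (right), coloured by the 3′ end of the annotated transcript. Filled points passed an adjusted p of 0.05, and Hist1h1c and Hist1h2bc lie left of 0 in both panels.

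Genes around the histone mRNA were read in the same fits, leaving out those that the phases were scored from, whose differences the scoring fixed: Nasp, Chaf1b and Anp32e of the chaperones, Slbp and Casp8ap2 of histone pre-mRNA processing, and Cenpa of the replication-independent histones. In keratinocyte-like cells 12 of the other 13 histone chaperones were higher in S and 0 lower, with a median log2 fold change of 0.71, among them Asf1b (3.47 ± 0.11), which hands H3-H4 to the replication fork, and Chaf1a (2.56 ± 0.09), a subunit of chromatin assembly factor. Of 18 tested genes of histone pre-mRNA processing 15 were higher and 1 lower (median 0.31), with Eri1, an exonuclease that trims the histone mRNA end, at 1.12 ± 0.05 and Npat, the coactivator of histone transcription, at 0.80 ± 0.10. The other 10 genes listed as replication-independent histones, which have introns or poly(A) tails, gave 7 higher and 1 lower (median 0.54). Their class was taken from the list and not read from these data. H2afx rose by 1.59 ± 0.09 and H2afz by 1.24 ± 0.05, and H2afj fell by 0.69 ± 0.08 on the log2 scale. H1f0 (0.02 ± 0.08) and H3f3b (0.09 ± 0.05) did not pass. All 11 genes of a list of dissociation stress, such as Fos and Jun, were lower in S (median -0.70). In fibroblast-like cells the counts were 12 of 13, 12 higher and 1 lower of 17, 7 higher and 0 lower of 10, and 0 higher and 9 lower of 10 in the same order.

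Outside S and G2M the level of the members varied between cell classes. Classes come from clustering and are named by their markers, so the values are given without a test. Among cells scored G1, the 65 members summed to a median of 1958 CPM in Merkel-like cells (3 libraries, 21 to 58 cells each), 722 in Schwann-like cells (8 libraries), 702 in sebaceous-like cells (4 libraries), 575 in T cell-like cells (3 libraries) and 202 in fibroblast-like cells (8 libraries). The Merkel-like, sebaceous-like and T cell-like values come from P0 libraries of both genotypes, and the Schwann-like and fibroblast-like values from E14.5 and E16.5 libraries, so class, age and tissue cannot be told apart between these sets. Basal keratinocyte-like cells of the 12 libraries ranged from 277.5 to 1331 CPM, which overlaps all of these but the fibroblast-like range. Within the same 8 libraries Schwann-like cells lay between 445 and 832 CPM and fibroblast-like cells between 162 and 226. Of these sums, Hist1h1c, Hist1h2bc, Hist3h2a and Hist3h2ba together gave a median of 1621 CPM in Merkel-like, 659 in Schwann-like, 455 in sebaceous-like, 376 in T cell-like and 148 in fibroblast-like cells. Hist1h2bc was the member with the most CPM in Merkel-like cells, where it lay between 289 and 692 with a median of 630, and Hist1h1c followed with 131 to 597 and a median of 452. The lowest Merkel-like library lay within the range of basal keratinocyte-like cells for these genes.

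Hist1h1c led in Schwann-like cells (177 to 431 CPM, median 339), T cell-like cells (up to 290, median 216), sebaceous-like cells (88.3 to 275, median 204), mast-like cells (68.4 to 348, median 140), fibroblast-like cells (18.4 to 77.03, median 46.5) and erythroid-like cells (15.5 to 59.1, median 45.2). Schwann-like and fibroblast-like ranges did not overlap, whereas Schwann-like and mast-like ranges did. Hist1h2bc led in the other classes. Its medians there were 139 in melanocyte-like, 129 in basal keratinocyte-like, 106 in hair follicle-like, 98.6 in macrophage or Langerhans-like, 77.6 in pericyte-like, 70.1 in differentiated keratinocyte-like, 69.4 in endothelial-like and 42.5 in muscle-like cells, and the ranges of neighbouring classes overlapped. Hist1h1b was at a median of 0 in G1 cells of the Schwann-like class, and at 13.5 in Merkel-like and 19.3 in sebaceous-like cells.

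**Figure D3:**
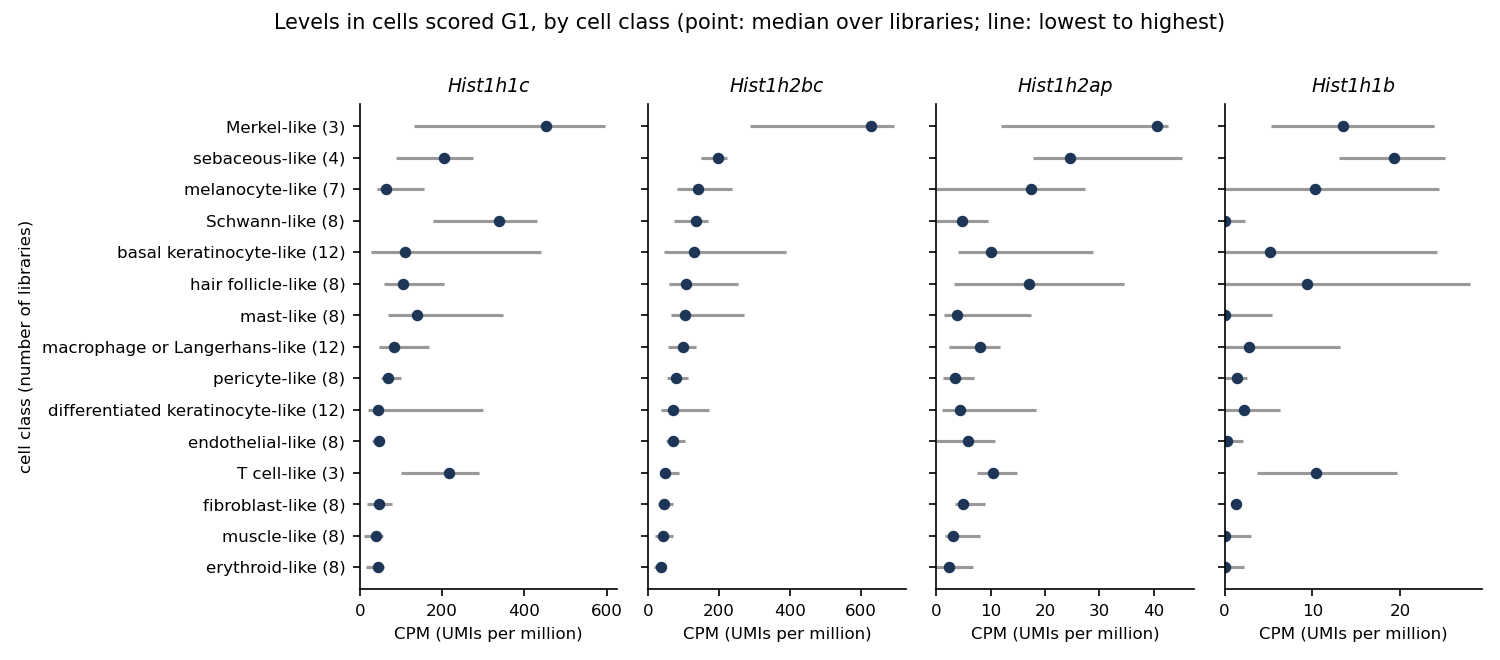
Level of Hist1h1c, Hist1h2bc, Hist1h2ap and Hist1h1b (horizontal axes, CPM of summed UMIs, each panel with its own scale) in cells scored G1 of each class (vertical axis, with the number of libraries that held 20 or more such cells). Points are medians over libraries and lines run from the lowest to the highest library, and Merkel-like cells lie at the far right for Hist1h2bc with a median of 630.

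Basal keratinocyte-like cells divide and give rise to the differentiated layers. Among G1 cells, Hist3h2ba, Hist1h2ae and Hist1h4i were higher in basal than in differentiated keratinocyte-like cells in 12 of 12 libraries, Hist1h2ap and Hist1h1e in 11, and Hist1h1c in 9. The lowest of the 12 most counted members were Hist1h2bc and Hist1h3c, each higher in 8 libraries. The median of Hist1h2ap was 10.1 CPM in basal and 4.36 in differentiated cells, and that of Hist3h2ba 63.9 and 34.7. The ranges over libraries overlapped for both. Differentiated cells scored S were few, and 9 of the 12 libraries held 20 or more of them.

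To follow age with the phase held fixed, WT groups were compared within G1 and within S cells. The animals of an age were littermates, so age and litter cannot be told apart in these contrasts. Between E14.5 and E16.5 few members passed. In G1 cells 0 of 32 tested members passed in edgeR, against 7.68% of genes higher and 4.81% lower, with 6 at an unadjusted p under 0.05 and 0 in DESeq2. Fitted values of members that did not pass lay on both sides, such as Hist1h1e (1.17 ± 0.40, adjusted p = 0.0789) and Hist2h2be (-1.43 ± 0.46, adjusted p = 0.0636), and the SE of low-count members reached 3.31. In S cells 3 of 42 were higher at E16.5 and 0 lower, against 7.66% of genes higher and 6.22% lower. Hist1h1b, a linker histone gene, was at 9.61 and 7.28 CPM at E14.5 and 24.8 and 18.7 at E16.5 (log2 fold change 1.46 ± 0.27, adjusted p = 0.00196). The others were Hist1h1e, at 10.4 and 12.8 against 23.7 and 22.7 (1.01 ± 0.25, adjusted p = 0.0151), and Hist1h2ae, at 14.4 and 14.6 against 29.5 and 22.2 (0.88 ± 0.24, adjusted p = 0.0267). All 3 were picked by the test on these values, so a lack of overlap largely follows from that choice. None of the 3 overlapped between ages, but without E14.5 WT replicate 2 the count was 0 and without E16.5 WT replicate 1 it was 1.

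From E16.5 to P0 most tested members were higher. In S cells 31 of 42 were higher and 0 lower, against 27.7% of 12056 genes higher and 25.3% lower, with a median log2 fold change of 1.65 over the members and 0.04 over all genes. In G1 cells 18 of 32 were higher and 0 lower, against 27.5% higher and 26.5% lower. The P0 libraries are of epidermis and the earlier ones of whole skin with a shorter dispase step, so age, litter, tissue and dissociation cannot be told apart. The makeup of the keratinocyte-like cells moved with this contrast: differentiated cells were 31.0 and 33.3% of them in E16.5 WT and 13.9 and 15.3% in P0 WT, and hair follicle cells 21.6 and 17.25% against 40.6 and 42.9%. Fibroblast markers in the keratinocyte-like sums moved with it too: all 7 were detected in every library, and they summed to 1627 to 2323 CPM in E16.5 WT and 401 to 497 in P0 WT. Their part in the result was not tested. The P0 WT library of the v1 kit, which entered no test, did not share the P0 levels of the v2 libraries for several members: in its S cells Hist1h1b was at 32.0 CPM, Hist1h1e at 27.9, Hist1h4d at 3.45 and Hist2h2aa1 at 2.20, nearer to the E16.5 than to the P0 v2 values given next. Kit and library cannot be told apart there.

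Linker histones were among those with the largest P0 values. In S cells Hist1h1b stood at 24.8 and 18.7 CPM at E16.5 and at 113 and 102 at P0 (log2 fold change 2.30 ± 0.16, adjusted p = 4.854e-08). Hist1h1a stood at 2.89 and 4.28 against 21.9 and 19.8 (2.52 ± 0.29), Hist1h1d at 5.36 and 5.25 against 23.1 and 27.6 (2.24 ± 0.23), and Hist1h1e at 23.7 and 22.7 against 63.9 and 82.9 (1.65 ± 0.16). These 4 H1 genes did not overlap between the ages in the v2 libraries, which largely follows from their being called on these values. They were also called in G1 cells, where Hist1h1a differed by 2.67 ± 0.52, Hist1h1b by 2.61 ± 0.49, Hist1h1d by 2.31 ± 0.28 and Hist1h1e by 1.81 ± 0.22. The fifth tested H1 gene, Hist1h1c, was at 49.7 and 50.9 CPM at E16.5 and 46.1 and 65.5 at P0 in S cells and did not pass (0.14 ± 0.23, adjusted p = 0.638).

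Core histones with the largest changes included Hist1h4d, an H4 gene, at 3.51 and 3.11 CPM at E16.5 against 19.4 and 19.5 at P0 (2.54 ± 0.24, adjusted p = 7.531e-07). Hist2h2aa1, an H2A gene of the chromosome 3 cluster, had 1 and 4 UMIs at E16.5 and 340 and 144 at P0, or 0.206 and 0.778 CPM against 29.2 and 12.1 (5.32 ± 0.62). For Hist2h2aa1 100% of the windows near the 3′ end were shared with other annotated genes, so its count may be split or dropped between them. Hist2h4 had 0 and 2 UMIs at E16.5 and 43 and 22 at P0 and was called higher, but its fold rests on those counts and is not given. In G1 cells the H3 gene Hist1h3i (2.33 ± 0.67, adjusted p = 0.0143) was also among the largest, and Hist1h3a (1.42 ± 0.43), Hist1h4h (1.496 ± 0.39), Hist1h2bg (1.64 ± 0.47) and Hist1h2ap (1.77 ± 0.31) among the smallest that passed.

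The well-counted members that were not higher in S took mixed values with age. In S cells Hist1h2bc (0.03 ± 0.22) and Hist3h2a (0.27 ± 0.27) did not pass, and Hist3h2ba passed with the smallest value of those called (0.52 ± 0.16, adjusted p = 0.0148). In G1 cells none of the 4 genes Hist1h1c, Hist1h2bc, Hist3h2a and Hist3h2ba passed, with values between -0.37 and 0.25. Hist1h2ap, the most counted member, was at 85.0 and 78.9 CPM in E16.5 S cells and at 167.5 and 121 at P0 (0.81 ± 0.21, adjusted p = 0.00468), and Hist1h4i (0.92 ± 0.21), Hist4h4 (1.17 ± 0.32) and the H3 gene Hist1h3d (1.25 ± 0.49) were the other called members with small values. Of the related lists in S cells, 6 of 11 replication-independent histone genes were lower at P0 and 2 higher, 5 of 16 chaperones lower and 3 higher, 9 of 19 processing genes lower and 1 higher, and 8 of 11 stress genes lower and 1 higher. The G1 count of 18 became 8 without E16.5 WT replicate 2, 11 without P0 WT replicate 1, and 7 when phases were set by the share of phase genes in cells thinned to 3000 UMIs.

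**Figure D4:**
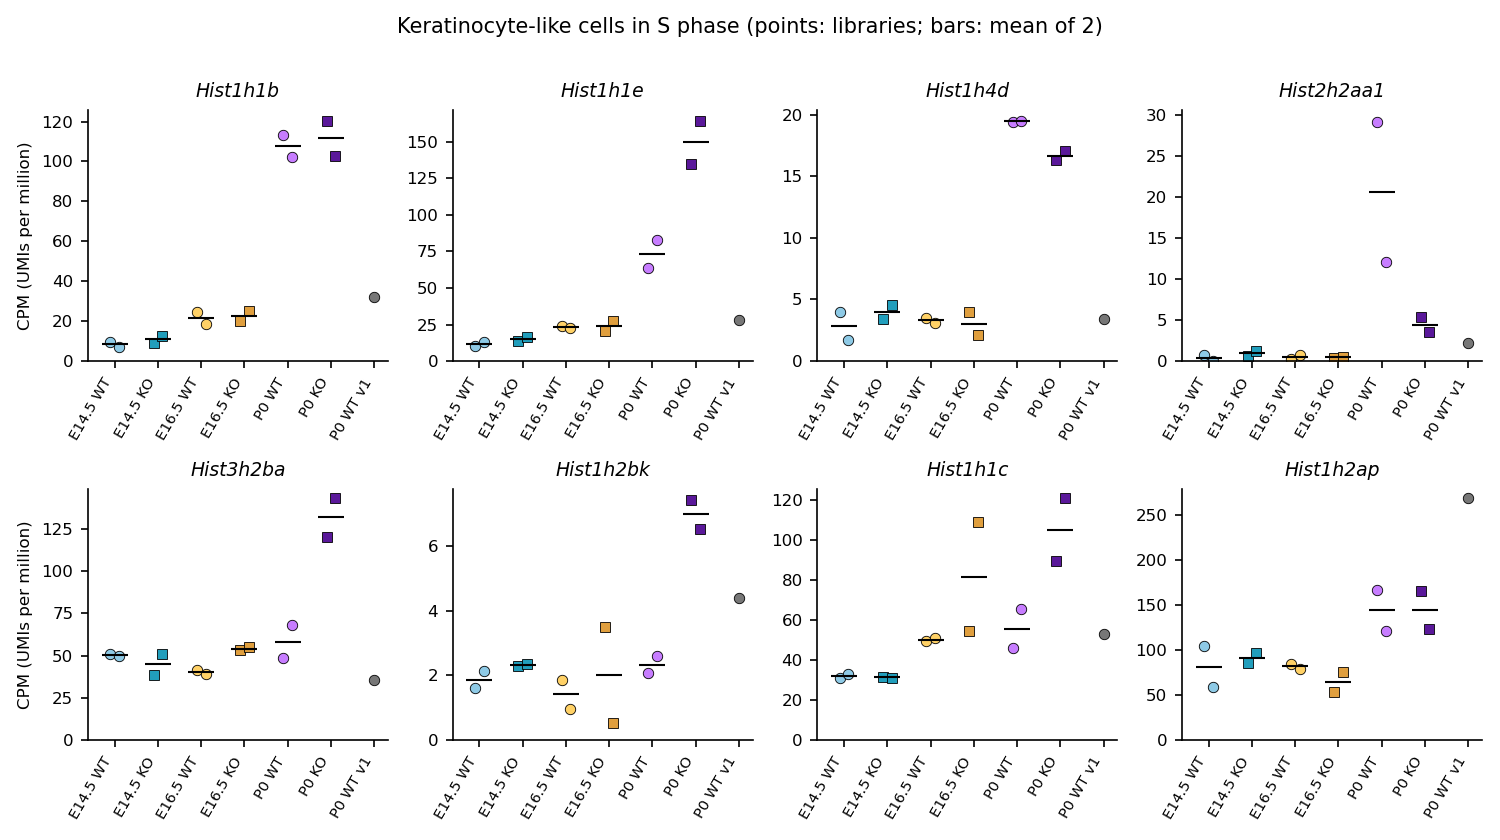
Level of 8 members (vertical axes, CPM of summed UMIs) in S-phase keratinocyte-like cells by age and genotype (horizontal axis), with 1 point per library, bars at the mean of 2 libraries, and the single Chromium v1 library in grey. Hist1h1b lies between 102 and 120 CPM in the 4 P0 v2 libraries and at 32.0 in the v1 library, whereas Hist3h2ba lies between 120 and 144 in P0 KO and between 48.4 and 68.3 in the P0 WT v2 libraries.

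KO was compared with WT at each age, first over all keratinocyte-like cells and then within S cells. At E14.5 and E16.5 edgeR called 0 members, both over all phases (58 tested) and in S (42 tested), against a low background. Over all phases 0.264% of genes were higher and 0.314% lower at E14.5, and 0.450% higher and 1.59% lower at E16.5. In S 0.0415% were higher and 0.141% lower at E14.5, and 0.224% higher and 0.348% lower at E16.5. An unadjusted p under 0.05 was reached by 1 member at E14.5 and 7 at E16.5 over all phases, and by 1 and 7 in S, and DESeq2 also called 0 in each. Hist3h2ba at E16.5 stood at 50.1 and 51.6 CPM in WT and 71.9 and 73.7 in KO over all phases without overlap, and did not pass (0.43 ± 0.15, adjusted p = 0.213). E16.5 KO replicate 2 had 128 CPM of Hist1h1c against 55.6 in replicate 1, so the KO pair differed more than the genotypes did on average.

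At P0 25 of 58 tested members were higher in KO over all phases and 3 lower, against 20.1% of 14014 genes higher and 19.3% lower. The median log2 fold change was 0.66 over the members and 0.00 over all genes. The share of keratinocyte-like cells in S was 25.2 and 21.03% in WT and 32.0 and 33.4% in KO, and the share in G2M 29.2 and 25.1% against 30.01 and 31.8%, so the phase makeup of the all-phase sums moved with genotype, and its part in these counts was not tested. Differentiated cells were 13.9 and 15.3% of the keratinocyte-like cells in WT and 7.05 and 7.36% in KO. Hair follicle cells were 40.6 and 42.9% in WT and 45.2 and 52.8% in KO. Fibroblast markers in the keratinocyte-like sums came to 401 and 497 CPM in WT and 597 and 650 in KO. The part of this makeup in the counts was not tested. Within S cells 9 of 42 members (21.4%) were higher in KO and 2 lower, against 16.4% of genes higher and 15.7% lower. The share called higher in S is near that of all genes, so this count alone does not set the members apart. A fit of the 4 P0 v2 libraries alone called 18 members in S, 14 higher and 4 lower. The share of all genes called in that fit is not given, so these numbers have no background beside them.

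Of the well-counted members that were not higher in S, Hist3h2ba, Hist3h2a, Hist1h1c and Hist1h2bc were higher in KO at P0, and Hist1h4i did not pass (0.17 ± 0.17). Hist3h2ba was at 48.4 and 68.3 CPM in WT S cells and 120 and 144 in KO (log2 fold change 1.28 ± 0.15, adjusted p = 2.715e-05). Hist3h2a was at 33.1 and 55.1 against 66.7 and 114 (1.13 ± 0.24), Hist1h1c at 46.1 and 65.5 against 89.4 and 121 (1.02 ± 0.21), and Hist1h2bc at 39.7 and 43.2 against 66.2 and 87.8 (0.99 ± 0.21). None of the 4 that passed overlapped between genotypes in S cells of the v2 libraries. They were called on these same values, so this separation largely follows from the test. In S cells of the P0 WT library of the v1 kit, Hist3h2ba was at 35.8 CPM, Hist3h2a at 39.1 and Hist1h1c at 53.1, below both KO libraries, and Hist1h2bc at 69.5, within the KO range. Over all phases Hist3h2ba differed by 1.68 ± 0.14, Hist1h2bc by 1.52 ± 0.24, Hist3h2a by 1.44 ± 0.24 and Hist1h1c by 1.29 ± 0.34. In G1 cells Hist1h1c stood at 44.6 and 111 CPM in WT and 217 and 282 in KO, and Hist1h2bc at 54.2 and 84.7 against 153 and 226. Over all members in G1, 6 of 32 tested (18.8%) were higher in KO and 1 lower. Of all genes in that fit, 1789 of 12795 were higher and 1806 lower.

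Among the members that are higher in S, Hist1h1e had the lowest adjusted p, at 63.9 and 82.9 CPM in WT S cells and 135 and 164 in KO (1.12 ± 0.14, adjusted p = 3.977e-05). The H2B genes Hist1h2bk, at 2.06 and 2.61 against 7.44 and 6.55 (1.68 ± 0.32, adjusted p = 0.00103), and Hist1h2bj, at 8.94 and 5.63 against 19.0 and 11.7 (1.17 ± 0.25), were also higher. Hist1h2ag (0.70 ± 0.20) and Hist1h1d (0.58 ± 0.16) completed the 9. Hist1h2ap, by contrast, was at 167.5 and 121 CPM in WT and 166 and 124 in KO, and Hist1h1b at 113 and 102 against 120 and 103. The genotypes overlapped for both. In the sums over all phases Hist1h2ao had the largest value (1.97 ± 0.46) on 9 and 25 UMIs in WT and 108 and 68 in KO, and the smallest of those called higher were Hist1h1a (0.50 ± 0.18) and Hist1h1b (0.45 ± 0.15).

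Lower in KO were Hist2h2aa1, at 29.2 and 12.1 CPM in WT S cells and 5.42 and 3.51 in KO (-2.10 ± 0.35, adjusted p = 0.000417), and the H4 gene Hist1h4h, at 12.4 and 6.89 against 4.75 and 3.63 (-1.10 ± 0.30). The WT replicates of both differed by more than the KO replicates, and no KO value reached that of a WT v2 library. Both genes were called on these values, so that separation largely follows from the test. The WT v1 library lay below both KO libraries, at 2.20 CPM of Hist2h2aa1 and 1.92 of Hist1h4h, so the separation was not seen with that library included. Over all phases Hist2h3b, an H3 gene of the same chromosome 3 cluster, joined them at 5.34 and 1.80 CPM in WT against 1.03 and 0.939 in KO (-1.76 ± 0.49, adjusted p = 0.0159). P0 WT replicate 1 was the higher library for all 3. The count of Hist2h2aa1 may be split or dropped between genes, since 100% of its windows were shared.

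Members chosen for their pooled values were also read in narrower classes of the same cells. Basal and hair follicle cells make up most keratinocyte-like cells at P0, so the same direction in them largely follows from the pooled values. In basal keratinocyte-like cells scored S, Hist3h2ba was at 42.8 and 59.0 CPM in P0 WT and 96.8 and 118 in KO, Hist1h1e at 57.3 and 75.4 against 122 and 132, and Hist2h2aa1 at 32.1 and 9.36 against 4.20 and 3.36. In hair follicle-like S cells Hist3h2ba was at 53.1 and 75.1 against 136 and 158, and Hist1h1e at 69.8 and 88.3 against 144 and 180. The genotypes did not overlap in either class for these genes in the v2 libraries. In differentiated G1 cells Hist1h1c was at 18.8 and 98.3 CPM in WT and 233 and 299 in KO. These levels were not tested.

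Histone-related lists were read at P0 in the same fit, in which 16.4% of all genes were higher in KO in S cells and 15.7% lower. In S cells 9 of 11 replication-independent histone genes were higher in KO and 0 lower (median 0.58), with H2afz at 1.03 ± 0.10, H1f0 at 0.99 ± 0.16 and H3f3b at 0.87 ± 0.08. Chaperones gave 10 higher and 0 lower of 16 (median 0.54), and processing genes 8 higher and 1 lower of 19 (median 0.32), with Slbp, 1 of the genes the phases were scored from, at 0.63 ± 0.09. Of the 11 stress genes 9 were higher in KO and 0 lower (median 0.90), and their sum in keratinocyte-like cells was 1492 and 1643 CPM in WT against 2222 and 2357 in KO. The mitochondrial share was 4.17 and 4.01% in WT and 3.15 and 2.58% in KO. Their part in the histone values was not tested.

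Whether the KO effect itself differed between ages was asked with interaction terms. Over all phases 4 of 58 members had a larger KO effect at P0 than at E16.5 and 0 a smaller one, against 9.43% of genes larger and 5.14% smaller. They were Hist1h2ac, Hist3h2ba, Hist1h2bc and Hist1h1e. Their number moved with the filter on low counts and with single libraries left out, as given further below. In S cells 2 of 42 members (4.76%) had a larger KO effect at P0 and 0 a smaller one. Of all genes 7.26% were larger and 3.43% smaller, so the count is not above the background. The 2 were Hist1h1e (1.14 ± 0.25, adjusted p = 0.00905) and Hist3h2ba (0.91 ± 0.24, adjusted p = 0.0244). For E16.5 minus E14.5 over all phases the edgeR count was 0, against 0.150% of genes larger and 0.300% smaller, with 4 members at an unadjusted p under 0.05 and 0 in DESeq2. In S, no member passed without E16.5 KO replicate 1, and 1 did without E16.5 WT replicate 1, E16.5 KO replicate 2, P0 WT replicate 1 or P0 KO replicate 2.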

How the data were processed

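Single-cell libraries of mouse skin were analysed from the UMI counts per gene and cell that the authors deposited, made with Cell Ranger on mm10. The study's methods name another Cell Ranger version than the submitters' processing notes, which give 1.3.1. Cells with 600 to 4800 genes (embryonic) or 900 to 7700 (P0) and at most 10% mitochondrial UMIs were kept, as in the study. Seurat 5.3.0 scored phases and clustered cells (3000 variable genes, 30 components, resolution 1), both without histone cluster genes. A cluster was named where its mean marker score reached 0.5 with 3 or more markers detected, a rule set after the clusters were seen. Doublets were not removed in the main analysis, and an alternative left out the 5% of cells with the highest Scrublet score. UMIs were summed per library, class and phase and tested with edgeR 4.0.16 (TMM, filterByExpr, quasi-likelihood, Benjamini-Hochberg over all tested genes, threshold 0.05), with library as block for phases and a shared spread over 6 groups of 2 for age and genotype. CPM are UMIs scaled to the total of the same sum. Libraries are single animals. The p-values of age and genotype measure the spread between 2 animals per group, and those of phases the spread of the phase differences within libraries. By the paper, WT and KO animals were littermates of 1 pregnancy, so age and litter cannot be told apart. The Chromium v1 library entered no test. In simulated data for KO against WT at P0 over all phases (13582 genes), 32.8% of genes changed 1.5-fold, 86.6% of those changed 2-fold and 100% of those changed 4-fold were called, so smaller changes can be missed. Members, lists and named genes were chosen with earlier results of these data known. Named were the 12 members with the most UMIs, the 5 largest and 5 smallest called differences of each contrast among members with 200 or more UMIs, members not called in S, and the highest member of each class. In KO and WT of the same age, replicates with the same number did not deviate together (correlations -0.046, -0.151 and -0.030 at E14.5, E16.5 and P0), so no pairing was used. Alternatives were DESeq2 1.42.0, RLE scaling, no filter, a 5% mitochondrial limit, doublets left out, clusters without integration, another phase rule, cells thinned to 3000 UMIs, single ages, a replicate block and each library left out. Protein sequences were not used here, and of the genome only the promoter stretches were searched.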

Additional observations from a re-analysis of the deposited data

Results flagged for a closer look

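The KO effect on 4 members differed between ages by an interaction test in keratinocyte-like cells over all phases. They are 4 of 58 tested, against 9.43% of all genes with a larger KO effect at P0, so the count is not above the background. Hist1h2ac, an H2A gene, had a KO effect larger at P0 than at E16.5 by 2.02 on the log2 scale (adjusted p = 0.0450), on 2 and 6 UMIs in the E16.5 KO libraries. Hist3h2ba differed by 1.25 (adjusted p = 0.00327), Hist1h2bc by 1.23 (adjusted p = 0.0366) and Hist1h1e by 1.17 (adjusted p = 0.00828). Without E16.5 WT replicate 1, E16.5 KO replicate 1 or P0 KO replicate 2 the count of members was 2.

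The P0 WT library of the Chromium v1 kit entered no comparison, and 2 of the 12 most counted members lay at least 1.5-fold above both P0 WT v2 libraries there in each phase. Hist1h2ap was at 269 CPM in its S-phase keratinocyte-like cells against 167.5 and 121, and Hist1h2bc at 69.5 against 39.7 and 43.2. Other members were lower in that library, such as Hist1h1e at 27.9 CPM against 63.9 and 82.9, Hist1h1b at 32.0 against 113 and 102 and Hist1h1d at 3.54 against 23.1 and 27.6. With 1 library, kit and library cannot be told apart.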

How the results depend on the processing

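Of the comparisons of single members, 4469 kept their side of the threshold under the alternatives, 136 lost the call and 42 gained it. A change of direction was counted only where the member was called in the main or the alternative fit. Members called in neither fit may have changed sign within the 4469. By that rule direction reversed in 2: Hist1h2be in S against G1 within E16.5 (-0.14) and Hist3h2a in G2M against G1 within E14.5 (-0.34). Within E14.5, S against G1 called 9 and G2M against G1 10 of 14 members tested, and within E16.5 they called 23 and 24 of 28, where fewer libraries and members entered. Without a filter on low counts, 3 and 5 members were called between E14.5 and E16.5 WT in G1 and S, 3 in KO against WT at E16.5 over all phases and 3 in S, 10 for the KO effect P0 minus E16.5 and 1 for E16.5 minus E14.5, and clusters without integration gave 1 for E14.5 against E16.5 in G1. The other phase rule gave 7 for P0 against E16.5 in G1, and 4 libraries of P0 alone gave 18 for KO against WT in S. Leaving out 1 library gave 40 to 44 calls for S against G1, 42 to 46 for G2M, 30 to 33 in fibroblast-like cells, 0 to 1 and 0 to 3 for E16.5 against E14.5 in G1 and S, 8 to 22 and 23 to 36 for P0 against E16.5, 20 to 29 and 8 to 14 for KO at P0 over all phases and in S, 2 to 5 for the difference of the KO effect P0 minus E16.5 and 0 to 2 for it in S. The cause of these differences was not tested. Shares of all genes called are not given for these alternative fits. Where 1 library of a group was left, it was assumed to vary like the other groups. The replicate block gave 27 calls for KO at P0 over all phases and 11 in S, 18 and 30 for P0 against E16.5 in G1 and S, and 4 and 3 for the difference of the KO effect, and changed no other count. Crossing the numbers of the E16.5 KO libraries gave 0 calls over all phases and in S. Depth limits the low members: in G1 cells Hist1h2af was at 0 in 6 of 12 libraries.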

Other observations

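Hist1h2ag, an H2A gene that ends near its stem-loop, stood at 21.7 CPM in S-phase keratinocyte-like cells of the P0 Chromium v1 library and at 6.53 and 6.05 in the P0 WT v2 libraries. Hist1h2an, another H2A gene, was at 3.48 CPM over all phases there against 0.699 and 0.883. Hist1h4d (3.45 CPM against 19.4 and 19.5) and Hist1h2ak (1.92 against 14.2 and 11.4) were lower in S in the v1 library. These genes were chosen after their values were seen.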
